A study of Mus musculus with 16 samples.

Results

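The aryl hydrocarbon receptor (AhR) and the genes it is best known to act with were followed in the epidermis of the mouse footpad. The 8 genes were chosen by their symbols, as the receptor itself (Ahr), its partner (Arnt), its repressor (Ahrr) and the target genes Cyp1a1, Cyp1b1, Tiparp, Nqo1 and Aldh3a1, and all 8 were found among the 50600 gene identifiers of the count table. The rule used symbols only, though earlier results of these data were known when the genes were picked. All 8 also passed the filter of at least 10 counts in total over the 16 libraries, among 22155 genes tested.

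Epidermal cells came from 16 female C57/B6J mice, 4 in each of 4 groups, and each mouse gave 1 library. For 3 wk, starting at 5 wk of age, all mice ate the purified diet AIN-93M, which is poor in AhR ligands (AhR-poor diet, SYNTH in the labels), or the same food enriched to 200 ppm with indole-3-carbinol (I3C diet), a plant compound that gives rise to AhR ligands. The footpad was then injected with 50 μl of PBS, without (vehicle) or with 50 μg of the protease papain, used as an allergen, and the epidermis was separated with dispase II and taken 6 hr later. The 4 groups were therefore the I3C diet with vehicle, the AhR-poor diet with vehicle, the I3C diet with papain and the AhR-poor diet with papain. Mice on the same diet shared a cage, so that an effect of diet and a difference between cages cannot be told apart.

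AhR is a transcription factor that waits in the cytoplasm in a complex with chaperones. When a ligand binds, it moves to the nucleus, pairs with ARNT and binds a short DNA element whose core reads GCGTG. The enzymes encoded by Cyp1a1 and Cyp1b1, together with TIPARP and the AhR repressor, limit the signal by breaking down ligands or restraining the receptor, and keratinocytes, Langerhans cells and fibroblasts are all known to express AhR. Nqo1 and Aldh3a1 encode detoxifying enzymes, and Nqo1 is also a textbook target of NRF2, the factor that answers oxidative stress.

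A promoter window was given by RefSeq (build GRCm38.p6) for 6 of the 8 genes, covering 250 bases before and 50 bases after the gene's start. Ahr and Aldh3a1 had no entry. For Cyp1a1, the RefSeq start lies inside the longer span that GENCODE gives the gene. The 4 windows below are shown because they belong to the CYP1 genes, whose levels differed by diet after papain, to the repressor, whose window held the most copies of the core, and to Nqo1, which rose with papain and whose window held none. They read 5′ to 3′ on the strand of the gene, with the core GCGTG in capitals, written CACGC where it lies on the other strand.
Cyp1a1 (chr9:57697363-57697662, plus strand): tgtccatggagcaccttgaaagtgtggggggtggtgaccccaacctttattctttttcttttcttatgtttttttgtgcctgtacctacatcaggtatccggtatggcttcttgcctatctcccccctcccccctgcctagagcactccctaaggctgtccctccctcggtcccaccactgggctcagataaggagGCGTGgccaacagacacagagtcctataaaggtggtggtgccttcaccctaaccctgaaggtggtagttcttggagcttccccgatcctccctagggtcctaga
Cyp1b1 (chr17:79715012-79715311, minus strand): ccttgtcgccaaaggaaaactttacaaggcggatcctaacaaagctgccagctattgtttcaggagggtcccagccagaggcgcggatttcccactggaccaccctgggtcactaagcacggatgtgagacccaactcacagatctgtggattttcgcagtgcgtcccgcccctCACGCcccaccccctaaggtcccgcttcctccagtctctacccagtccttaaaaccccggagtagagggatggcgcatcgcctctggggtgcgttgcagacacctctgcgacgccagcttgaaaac
Ahrr (chr13:74292282-74292581, minus strand): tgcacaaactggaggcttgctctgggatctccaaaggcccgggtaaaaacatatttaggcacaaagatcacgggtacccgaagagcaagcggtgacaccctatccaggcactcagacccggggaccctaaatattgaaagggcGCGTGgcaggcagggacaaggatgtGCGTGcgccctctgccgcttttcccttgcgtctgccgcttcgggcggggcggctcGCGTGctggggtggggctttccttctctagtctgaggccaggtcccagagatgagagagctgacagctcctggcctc
Nqo1 (chr8:107403156-107403455, minus strand): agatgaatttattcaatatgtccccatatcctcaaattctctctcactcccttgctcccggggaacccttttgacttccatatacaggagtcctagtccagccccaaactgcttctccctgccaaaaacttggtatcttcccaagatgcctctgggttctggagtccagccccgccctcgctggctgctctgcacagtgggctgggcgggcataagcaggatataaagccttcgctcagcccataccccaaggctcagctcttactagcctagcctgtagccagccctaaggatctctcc

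Searched on both strands, the core had 1 match in the Cyp1a1 window, at position -54 from the start. In the Cyp1b1 window it had 1 match, on the reverse strand at -76. The Ahrr window held 3 matches, at -107, -82 and -27. Outside the windows printed, Arnt had 1 match at -29 and Tiparp had 1, on the reverse strand, at -170. The longer form TNGCGTG, which contains the core, was found in the Ahrr window alone among the 6. The antioxidant element bound by NRF2, searched as TGACNNNGC, had 2 matches in the Arnt window and 0 in the windows of Ahrr, Cyp1a1, Cyp1b1, Tiparp and Nqo1. These letters are common. Over 32851 RefSeq windows of the same length, from 27025 genes, 32.4% held the core, 5.07% the longer form and 12.4% the antioxidant element. A match describes the letters of a window and does not show that a factor binds there. A window without a match says nothing of the sequence outside it, which was not searched.

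Library totals ran from 22500821 to 51844375 counts, with the lowest in the AhR-poor papain library T107. The detection floor was set at 3 counts, or 0.0579 to 0.133 CPM (counts scaled to library size), and allows for counting error alone. The keratins that define the epidermis were abundant in every library, from 7574 to 14428 CPM for Krt5 and from 12058 to 32101 CPM for Krt10. Markers of other cells differed by diet, however. The summed level of 8 endothelial markers was 0.919 to 3.65 CPM on the I3C diet with vehicle and 15.9 to 42.6 CPM in mice fed the AhR-poor diet with vehicle, and it was 1.03 to 2.83 and 26.1 to 65.2 CPM in the matching papain groups. Fewer cells of a type and less RNA in each cell cannot be told apart in such libraries. The I3C papain library T106 and the AhR-poor papain library T112 carry codes that do not run on with those of their group. Values without both are therefore given where they moved any of the 8 genes across a threshold.

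Per kb of merged exons, Aldh3a1 was the most abundant of the 8 genes, with a median of 78.3 CPM per kb over the 16 libraries. Tiparp followed at 34.8, then Nqo1 at 10.3, Ahr at 9.41 and Arnt at 7.49 CPM per kb. The CYP1 genes and the repressor were far lower, with medians of 0.605 CPM per kb for Cyp1b1, 0.378 for Cyp1a1 and 0.0811 for Ahrr. Of neighbours in this order, only Arnt and Cyp1b1 had ranges over the libraries that did not overlap. Per kb of coding sequence, Arnt moved up to rank 3 and Nqo1 down to rank 5.

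**Figure D1:**
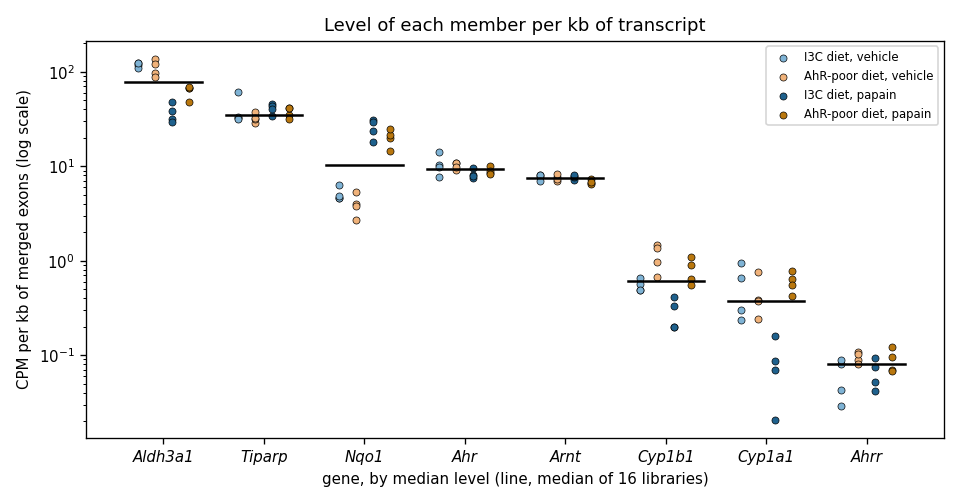
Level of each of the 8 genes in CPM per kb of merged exons (log axis), 1 point for each of the 16 libraries, coloured by group, with a line at the median. A gap in the ranges lies between Arnt, whose lowest library stood at 6.45 CPM per kb, and Cyp1b1, whose highest stood at 1.48.

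The genes differed widely in how much they varied. Between its highest and lowest library, Cyp1a1 spanned 46.2-fold, Nqo1 11.4-fold and Cyp1b1 7.50-fold. Aldh3a1 spanned 4.66-fold and Ahrr 4.28-fold, whereas Tiparp (2.12-fold), Ahr (1.86-fold) and Arnt (1.30-fold) varied least.

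**Figure D2:**
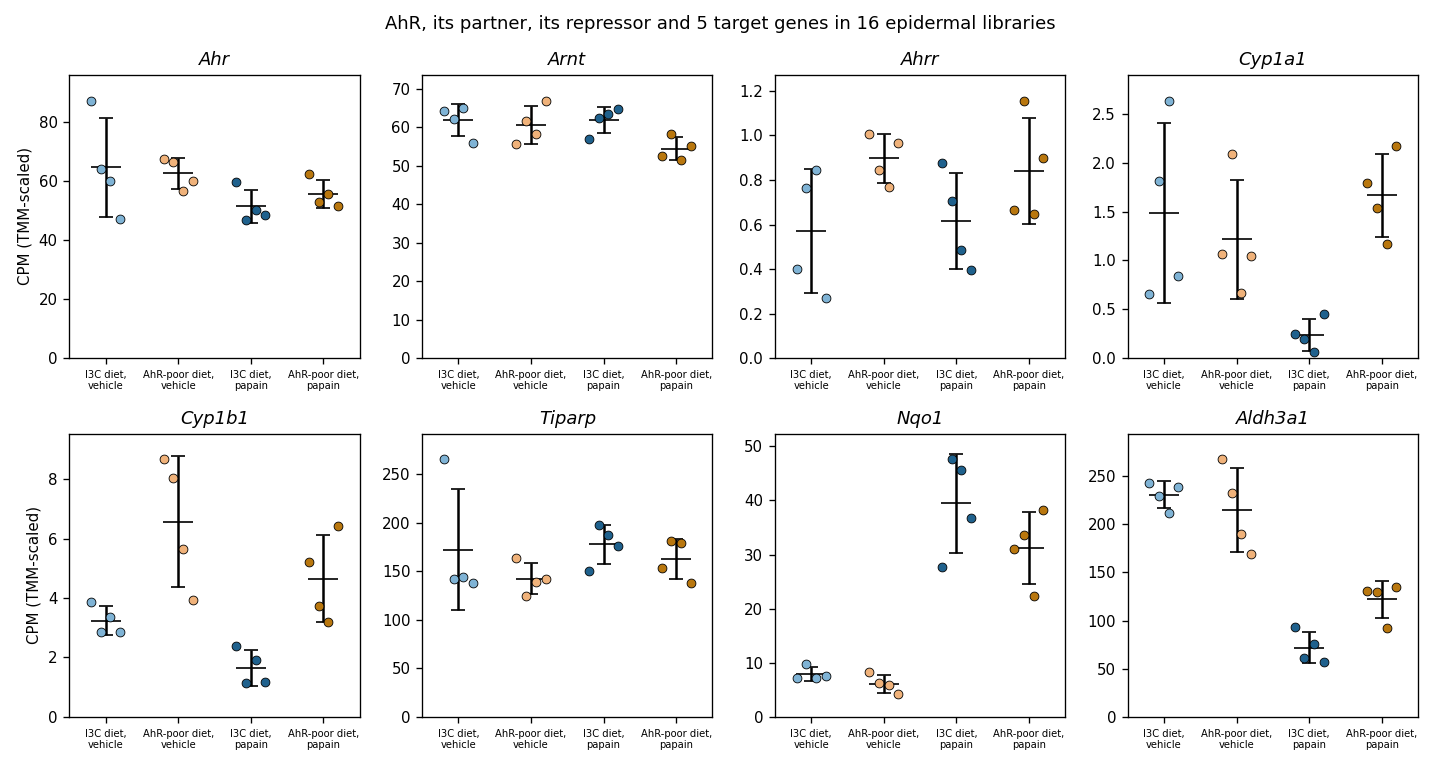
CPM of each gene in each library (points), with the mean and SD of the 4 libraries of each group (bars). After papain, the 4 I3C libraries lie below the 4 AhR-poor libraries for Cyp1a1 and Cyp1b1, and papain libraries lie above vehicle libraries for Nqo1 on both diets.

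To ask whether dietary AhR ligands alone set the level of these genes, the diets were first compared with vehicle. None of the 8 genes was called, that is, passed an adjusted p below 0.01 with a log2 fold change beyond 1 (edgeR quasi-likelihood test, Benjamini-Hochberg adjustment over 22155 genes). Over all genes, 1.59% were. Without a minimum fold and at an adjusted p below 0.05, 1 gene of the 8 passed, Cyp1b1, beside 3.08% of all genes. Groups did not overlap for that 1 gene, beside 8.12% of all genes. The median log2 fold change of the 8 was -0.08, and that of all genes tested was -0.01.

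Cyp1a1, the classical readout of AhR activity, lies at chr9:57687928-57703824 of GRCm38 (ENSMUSG00000032315). With vehicle it stood at 0.660, 1.81, 2.64 and 0.840 CPM on the I3C diet and at 1.06, 2.09, 0.668 and 1.05 CPM in mice fed the AhR-poor diet. Both groups covered the same range. The log2 fold change for the AhR-poor against the I3C diet was -0.30 ± 0.44 (SE, n = 4 per group, 95% interval -1.23 to 0.63, edgeR adjusted p = 0.879), so a difference of the size seen after papain lies outside the interval.

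Cyp1b1 (chr17:79701537-79715061, ENSMUSG00000024087) encodes the other CYP1 enzyme of the set. It stood at 3.88, 2.86, 3.35 and 2.85 CPM on the I3C diet and at 8.66, 8.05, 5.64 and 3.92 CPM in mice fed the AhR-poor diet, both with vehicle. Every AhR-poor library was above every I3C library, the nearest pair being 3.88 and 3.92 CPM. This was a log2 fold change of 1.02 ± 0.27 (SE, n = 4 per group, edgeR adjusted p = 0.0497), and the exact two-sided permutation test gave p = 0.0286, the smallest that 4 libraries against 4 allow. This adjusted p lay close to the looser threshold. It was above 0.05 in 9 of the 16 fits that left out 1 library, where it ran from 0.0140 to 0.175 (highest without T100), and it was 0.0849 when genes needed 10 counts in every library.

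For the remaining genes the vehicle groups overlapped. The largest of these differences was that of Ahrr, at 0.570 ± 0.277 CPM (SD, n = 4) on the I3C diet and 0.897 ± 0.110 CPM in mice fed the AhR-poor diet, with a log2 fold change of 0.64 ± 0.34 (SE, edgeR adjusted p = 0.468). For Ahr, Arnt, Tiparp, Nqo1 and Aldh3a1 the log2 fold changes lay between -0.36 and -0.03, with edgeR adjusted p of 0.556 or more.

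**Figure D3:**
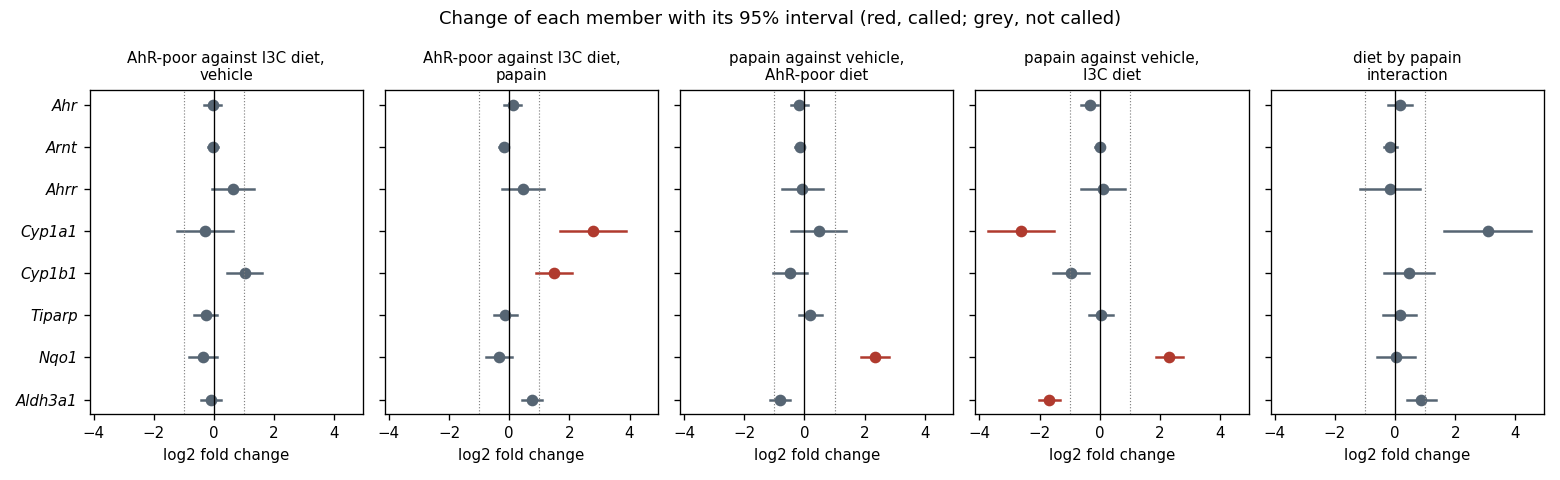
Log2 fold change of each of the 8 genes (points) with its 95% interval (lines) in the 4 comparisons of groups and in the interaction of diet and papain. Red marks a called gene, and dotted lines mark log2 fold changes of -1 and 1. Red points are Cyp1a1 and Cyp1b1 for the diets with papain, Nqo1 for papain on each diet, and Cyp1a1 and Aldh3a1 for papain on the I3C diet.

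The diets were then compared after papain. Here 2 of the 8 genes were called, Cyp1a1 and Cyp1b1, both higher on the AhR-poor diet, beside 7.24% of all genes. At an adjusted p below 0.05 with any fold, 3 of the 8 passed, beside 20.7% of all genes. The groups did not overlap for 2 of the 8, beside 24.9%. The median log2 fold change of the 8 was 0.29, against 0.01 over all genes tested.

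After papain, Cyp1a1 stood at 0.244, 0.192, 0.0571 and 0.448 CPM on the I3C diet and at 1.80, 1.54, 1.17 and 2.18 CPM in mice fed the AhR-poor diet. All 4 I3C libraries were below every AhR-poor library, and the lowest of them rested on 2 counts, under the floor of 3. The other I3C libraries held 10, 6 and 18 counts, and the AhR-poor libraries between 27 and 81. The log2 fold change was 2.79 ± 0.52 (SE, n = 4 per group, 95% interval 1.69 to 3.89, edgeR adjusted p = 9.2e-04, exact two-sided permutation p = 0.0286), or 6.90-fold.

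Cyp1b1 after papain stood at 2.39, 1.15, 1.91 and 1.17 CPM on the I3C diet and at 5.22, 3.72, 3.20 and 6.42 CPM in mice fed the AhR-poor diet. As with vehicle, the groups did not overlap and the AhR-poor libraries were the higher. Between the diets the log2 fold change was 1.48 ± 0.29 (SE, n = 4 per group, 95% interval 0.88 to 2.09, edgeR adjusted p = 0.0011), or 2.80-fold. Both CYP1 genes also stayed called without T106 and T112, at log2 fold changes of 2.64 (edgeR adjusted p = 0.0073) and 1.53 (edgeR adjusted p = 0.00122).

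Many markers of other cells were also higher on the AhR-poor diet, where both CYP1 genes were higher with papain. With vehicle, where many such markers were higher too, Cyp1a1 was not, at a log2 fold change of -0.30 (edgeR adjusted p = 0.879). Of 18 fibroblast markers, 13 were called higher on the AhR-poor diet with vehicle and 14 with papain, and all 8 endothelial markers were called higher in both. The summed fibroblast level was 494 to 655 CPM on the I3C diet and 1086 to 1632 CPM in mice fed the AhR-poor diet with papain, and 635 to 873 and 710 to 939 CPM with vehicle. Markers of neutrophils (7 of 10), monocytes and macrophages (8 of 8), Langerhans cells (2 of 7), pericytes and smooth muscle (3 of 7) and T cells (1 of 6) were also called higher on the AhR-poor diet with papain. With vehicle, those called higher were 2 of 8 for monocytes and macrophages, 1 of 7 for Langerhans cells, 1 of 7 for pericytes and smooth muscle, and 0 for neutrophils and T cells. Of the 7 pericyte and smooth muscle markers, 2 were lower on the AhR-poor diet with papain at an adjusted p below 0.05. With papain their summed level was 309 to 373 CPM on the I3C diet and 207 to 250 CPM in mice fed the AhR-poor diet. Of 6 basal keratinocyte markers, 4 were lower on the AhR-poor diet with papain at an adjusted p below 0.05, with a median log2 fold change of -0.40, and 0 were with vehicle. None of these lists had a marker at 0 throughout the AhR-poor papain group, whereas 1 neutrophil marker was at 0 throughout the I3C papain group. With the mean log2 CPM of the fibroblast markers as a covariate, the log2 fold changes with papain were 2.70 for Cyp1a1 and 1.90 for Cyp1b1, both at an edgeR adjusted p of 1, and 0 of all genes were called. That mean separated the diets without overlap, so the covariate and the diet share most of their variation, and the part of these cells in the CYP1 differences was not tested.

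**Figure D4:**
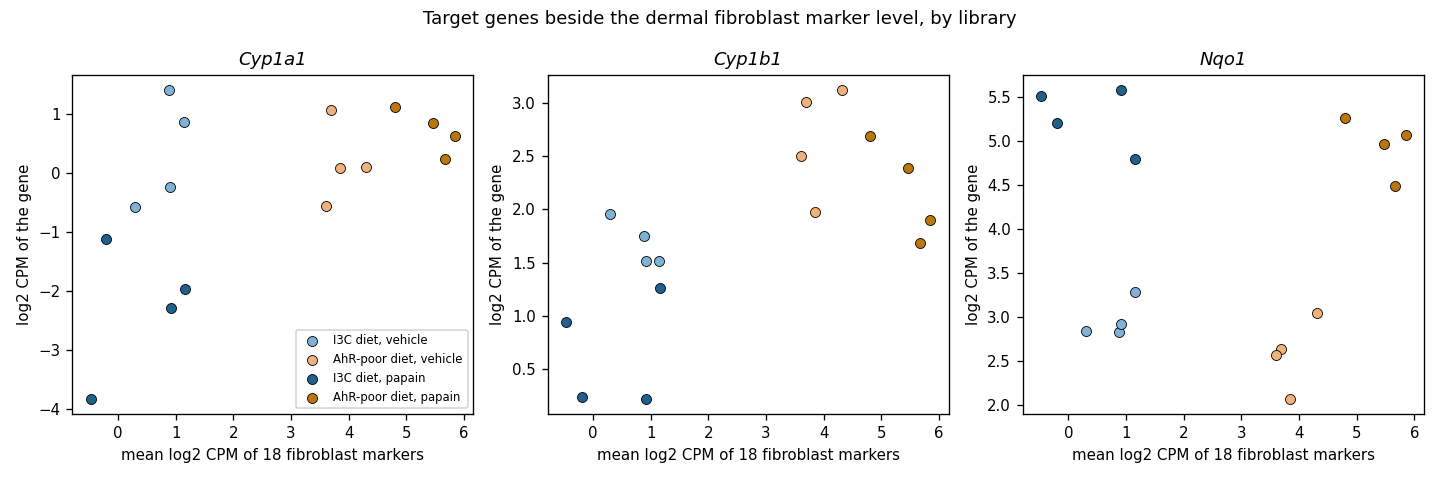
Log2 CPM of Cyp1a1, Cyp1b1 and Nqo1 (vertical axes) against the average log2 CPM of 18 markers of dermal fibroblasts (horizontal axis), 1 point for each of the 16 libraries, coloured by group. The marker level runs from -0.47 to 1.16 on the I3C diet and from 3.60 to 5.85 on the AhR-poor diet, and within the AhR-poor diet the papain libraries have more fibroblast marker signal than the vehicle libraries, where Cyp1b1 averages 4.64 CPM with papain and 6.57 CPM with vehicle and Cyp1a1 averages 1.67 and 1.22 CPM.

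Aldh3a1 (chr11:61207537-61218421, ENSMUSG00000019102), which encodes an aldehyde dehydrogenase, passed an adjusted p below 0.05 between the diets with papain without reaching the fold threshold. Its levels were 93.4, 61.6, 75.3 and 57.4 CPM on the I3C diet and 131, 130, 92.7 and 134 CPM in mice fed the AhR-poor diet. Only T106, at 93.4 CPM, and T107, at 92.7 CPM, overlapped. The log2 fold change was 0.76 ± 0.16 (SE, n = 4 per group, edgeR adjusted p = 0.00313, exact two-sided permutation p = 0.0571). For Ahr, Arnt, Ahrr, Tiparp and Nqo1 the log2 fold changes between the diets with papain lay between -0.33 and 0.47, with edgeR adjusted p of 0.0825 or more. Without T106 and T112, Nqo1 passed an adjusted p below 0.05, at a log2 fold change of -0.58 (edgeR adjusted p = 0.0476).

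Papain was next compared with vehicle on each diet, 2 comparisons that share no library. On the AhR-poor diet, 1 of the 8 genes was called, beside 8.46% of all genes. At an adjusted p below 0.05 with any fold, 2 of the 8 passed, beside 33.4% of all genes, and the groups did not overlap for 2 of the 8, beside 33.0%. On the I3C diet, 3 of the 8 were called, 1 higher and 2 lower, beside 8.98% of all genes. There, 4 of the 8 passed the looser rule, beside 35.3% of all genes, and 4 did not overlap, beside 33.4%. The median log2 fold change of the 8 was -0.11 on the AhR-poor diet and -0.17 on the I3C diet, against -0.004 and -0.04 over all genes tested.

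Nqo1 (chr8:107388225-107403206, ENSMUSG00000003849), which encodes a quinone reductase, rose with papain on both diets. With vehicle it stood at 7.15, 9.74, 7.10 and 7.56 CPM on the I3C diet and at 8.25, 6.19, 5.93 and 4.18 CPM in mice fed the AhR-poor diet. With papain it stood at 27.7, 47.6, 45.6 and 36.8 CPM on the I3C diet and at 31.0, 33.5, 22.3 and 38.2 CPM in mice fed the AhR-poor diet. Every papain library was above every vehicle library. Its log2 fold change was 2.32 ± 0.22 (SE, n = 4 per group, edgeR adjusted p = 4.9e-07) on the I3C diet, or 4.99-fold. On the AhR-poor diet it was 2.35 ± 0.22 (SE, n = 4 per group, edgeR adjusted p = 9.5e-07), or 5.10-fold. The difference between the 2 responses was 0.03 on the log2 scale, with a 95% interval of -0.60 to 0.66.

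Aldh3a1 went the other way. With vehicle it stood at 243, 229, 212 and 239 CPM on the I3C diet and at 268, 233, 190 and 170 CPM in mice fed the AhR-poor diet, and each papain group, listed above, lay below its vehicle group without overlap. Its log2 fold change was -1.68 ± 0.16 (SE, n = 4 per group, edgeR adjusted p = 7.0e-07) on the I3C diet, where the gene was called. On the AhR-poor diet it was -0.82 ± 0.16 (SE, n = 4 per group, edgeR adjusted p = 8.8e-04), short of the fold threshold.

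Cyp1a1 fell with papain on the I3C diet, from 1.49 ± 0.919 to 0.235 ± 0.162 CPM (SD, n = 4), with no overlap. This was a log2 fold change of -2.62 ± 0.53 (SE, 95% interval -3.72 to -1.51, edgeR adjusted p = 6.7e-04). On the AhR-poor diet the means were 1.22 ± 0.611 CPM with vehicle and 1.67 ± 0.425 CPM with papain, the groups overlapped, and the log2 fold change was 0.47 ± 0.44 (SE, edgeR adjusted p = 0.460). The order of the 4 group means was therefore AhR-poor with papain, I3C with vehicle, AhR-poor with vehicle and, well below these 3, I3C with papain.

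Cyp1b1 passed the looser rule with papain on the I3C diet, at a log2 fold change of -0.96 ± 0.29 (SE, n = 4 per group, edgeR adjusted p = 0.0138) and with groups that did not overlap. Without T106 it was called, at -1.20 (edgeR adjusted p = 0.00379). On the AhR-poor diet its log2 fold change was -0.50 ± 0.27 (SE, n = 4 per group, edgeR adjusted p = 0.176) and the groups overlapped. On the I3C diet, 0 of the 18 fibroblast markers were called higher with papain and 3 were called lower, whereas on the AhR-poor diet 13 were called higher. The part of the marked cells in these values was not tested.

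The receptor itself, Ahr (chr12:35497974-35535038, ENSMUSG00000019256), was measured at similar levels in all 4 groups. It stood at 64.5 ± 16.7 CPM (SD, n = 4) with vehicle and 51.3 ± 5.68 CPM with papain on the I3C diet, and at 62.4 ± 5.12 and 55.5 ± 4.82 CPM in mice fed the AhR-poor diet. The largest of its log2 fold changes was -0.33 ± 0.14 (SE, edgeR adjusted p = 0.0697), for papain on the I3C diet. Without T106 and T112 that change was -0.41 (edgeR adjusted p = 0.0381). Of its exons, 127 bases are shared with the noncoding gene Gm48236 on the opposite strand.

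Arnt (chr3:95434388-95497240, ENSMUSG00000015522), the partner that AhR needs to bind DNA, was the steadiest of the 8 genes. Its group means lay between 54.4 and 61.9 CPM, with the lowest in the AhR-poor papain group. The largest of its log2 fold changes was -0.19 ± 0.07 (SE, n = 4 per group, edgeR adjusted p = 0.0825), for the diets with papain. Without T106 that change was -0.21 (edgeR adjusted p = 0.0458), and without T106 and T112 it was -0.23 (edgeR adjusted p = 0.0667).

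Ahrr (chr13:74211118-74292331, ENSMUSG00000021575), which competes with AhR for ARNT, was detected in all 16 libraries, from 0.270 to 1.16 CPM. Its means were 0.616 ± 0.217 CPM (SD, n = 4) on the I3C diet and 0.842 ± 0.239 CPM in mice fed the AhR-poor diet with papain. The log2 fold changes with papain were 0.10 ± 0.35 on the I3C diet and -0.07 ± 0.32 on the AhR-poor diet (SE, edgeR adjusted p = 0.860 and 0.903). At this depth the 95% intervals still reached from -0.63 to 0.83 and from -0.75 to 0.61, so moderate changes were not detectable.

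Tiparp (chr3:65528410-65555518, ENSMUSG00000034640), which encodes an ADP-ribosyltransferase that restrains AhR, was not called in any comparison. Its means were 172 ± 62.2 CPM (SD, n = 4) with vehicle and 178 ± 20.5 CPM with papain on the I3C diet, and 142 ± 15.96 and 163 ± 20.7 CPM in mice fed the AhR-poor diet. Library T108 alone, at 265 CPM, set the spread of the first group, whose other libraries lay between 137 and 144 CPM. The same library held the highest Ahr level of the 16, 87.1 CPM. Tiparp shares 223 exonic bases with the pseudogene 4931440P22Rik on the opposite strand.

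Whether the response to papain depended on the diet was tested as the interaction of both. None of the 8 genes was called, beside 0.0181% of all genes, and none passed an adjusted p below 0.05, beside 0.329%. At an unadjusted p below 0.05, 2 of the 8 passed, Cyp1a1 and Aldh3a1, beside 13.5% of all genes. For Cyp1a1 the response on the AhR-poor diet exceeded that on the I3C diet by 3.08 ± 0.69 on the log2 scale (SE, 95% interval 1.64 to 4.53, edgeR adjusted p = 0.0649). In the Wald test of DESeq2 the same difference was 3.12 (adjusted p = 7.8e-04), and Cyp1a1 was called. In edgeR it was 3.11 without T106 (edgeR adjusted p = 0.0457) and 2.94 without T106 and T112 (edgeR adjusted p = 0.0551). For Aldh3a1 the difference was 0.87 ± 0.23 (SE, 95% interval 0.38 to 1.35, edgeR adjusted p = 0.123), and 0.97 without T106 and T112 (edgeR adjusted p = 0.0192). In DESeq2 it was 0.88 (Wald test, adjusted p = 0.00981), short of the fold threshold. For Cyp1b1 it was 0.46, with a 95% interval of -0.37 to 1.29.

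Genes around the pathway were taken from lists. Markers of other cells differed by diet, as given above, and the part of these cells in the values of the listed genes was not tested. Of 18 genes of the AhR complex and its cofactors, with chaperones, related partners and coactivators, 3 were called in any comparison, beside 16.5% of all genes. Between the diets with papain, 7 of the 18 were lower and 1 was higher at an adjusted p below 0.05. Over all 22155 genes tested, 1852 were lower and 2725 higher at that threshold. The median log2 fold change of the 18 was -0.35, against 0.01 over all genes tested, and 5 of the 18 were above 0. Arnt2, a relative of Arnt, was higher on the AhR-poor diet with papain, at 3.80 ± 1.01 against 1.60 ± 0.789 CPM (SD, n = 4), a log2 fold change of 1.24 (edgeR adjusted p = 0.00825). Epas1, an oxygen-regulated factor that also pairs with ARNT, fell with papain, with a log2 fold change of -2.06 on the I3C diet (edgeR adjusted p = 1.0e-06). On the AhR-poor diet it was -1.69 (edgeR adjusted p = 1.1e-05). Hif1a, its relative, rose with papain on the I3C diet, from 186 ± 36.6 to 416 ± 74.3 CPM, a log2 fold change of 1.16 (edgeR adjusted p = 1.4e-06). It went from 150 ± 11.4 to 271 ± 7.88 CPM on the AhR-poor diet, with a log2 fold change of 0.85 (edgeR adjusted p = 5.5e-05), short of the fold threshold. Between the diets with papain its log2 fold change was -0.62 (edgeR adjusted p = 0.00206).

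From the list of other AhR-responsive genes, 17 were tested, and Cyp1a2 was too low. None was called between the diets with vehicle, beside 1.59% of all genes. With papain 1 was, beside 7.24% of all genes, namely Socs2, a suppressor of cytokine signalling. It stood at 1.97 ± 0.0935 CPM (SD, n = 4) on the I3C diet and 4.15 ± 0.933 CPM in mice fed the AhR-poor diet, with a log2 fold change of 1.07 (edgeR adjusted p = 0.0017). Socs2 also fell with papain on the I3C diet, with a log2 fold change of -1.36 (edgeR adjusted p = 6.4e-05), while on the AhR-poor diet its log2 fold change was 0.11 (edgeR adjusted p = 0.742). The difference between its responses was 1.47 (edgeR adjusted p = 0.0409), the sole one of the 17 below an adjusted p of 0.05.

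With papain on the I3C diet, 2 of the 17 were called higher and 5 lower, beside 8.98% of all genes called. On the AhR-poor diet 2 were called higher and 2 lower, beside 8.46%. Gsta1, a glutathione transferase, rose by log2 fold changes of 2.26 on the I3C diet (edgeR adjusted p = 5.6e-07) and 1.43 on the AhR-poor diet (edgeR adjusted p = 1.0e-04). Xdh, the enzyme that makes uric acid, rose by 1.66 (edgeR adjusted p = 1.8e-06) and 1.38 (edgeR adjusted p = 1.8e-05). Selenbp1, a selenium-binding protein, had log2 fold changes of -1.79 on the I3C diet (edgeR adjusted p = 5.1e-07) and -1.02 on the AhR-poor diet (edgeR adjusted p = 2.1e-04). Ugt1a6b, which adds glucuronic acid to small molecules, had log2 fold changes of -1.61 (edgeR adjusted p = 0.00188) and -1.49 (edgeR adjusted p = 0.00602), and reads could be split among the near-identical Ugt1a genes and between Gsta1 and its close paralog. Cyp2s1, another cytochrome P450, was called lower on the I3C diet, at -1.50 (edgeR adjusted p = 1.2e-07), and on the AhR-poor diet it stood at -0.83 (edgeR adjusted p = 9.4e-05). The median of the 17 was -0.47 on the I3C diet and 0.11 on the AhR-poor diet, against -0.04 and -0.004 over all genes tested.

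Since Nqo1 is shared with NRF2, 10 further NRF2 targets were read beside it. None was called between the diets with vehicle, beside 1.59% of all genes. With papain 1 of the 10 was, beside 7.24% of all genes. This was Hmox1 (heme oxygenase), higher on the AhR-poor diet at a log2 fold change of 1.48 (edgeR adjusted p = 0.00183). Its level was 61.0 ± 27.5 CPM (SD, n = 4) there and 21.8 ± 3.33 CPM on the I3C diet. All 8 markers of monocytes and macrophages were called higher in the same comparison. With papain on the AhR-poor diet 3 of the 10 were called, all higher, beside 8.46% of all genes called. On the I3C diet 2 were, both higher, beside 8.98%. Slc7a11, a cystine transporter, rose from 3.04 ± 0.703 to 57.0 ± 25.2 CPM (SD, n = 4) in mice fed the AhR-poor diet, with a log2 fold change of 4.23 (edgeR adjusted p = 6.1e-07). In mice fed the I3C diet it rose from 3.91 ± 1.40 to 34.2 ± 5.30 CPM, a log2 fold change of 3.13 (edgeR adjusted p = 3.4e-06). Hmox1 rose by 2.55 on the AhR-poor diet (edgeR adjusted p = 1.4e-05) and by 1.11 on the I3C diet (edgeR adjusted p = 0.00739). Gsr, glutathione reductase, was called on the AhR-poor diet alone, at 1.07 (edgeR adjusted p = 1.4e-06), with 0.49 on the I3C diet (edgeR adjusted p = 0.00218), and the difference between these responses had an edgeR adjusted p of 0.135. The median of the 10 was 0.34 on the AhR-poor and 0.25 on the I3C diet, against -0.004 and -0.04 over all genes tested.

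Of 4 enzymes that make AhR ligands from amino acids, 3 were tested and Tdo2 was too low. Il4i1, an amino acid oxidase, rose with papain on both diets, from 0.673 ± 0.0894 to 2.72 ± 0.842 CPM (SD, n = 4) in mice fed the AhR-poor diet and from 0.657 ± 0.271 to 1.52 ± 0.401 CPM on the I3C diet. The log2 fold changes were 2.01 (edgeR adjusted p = 4.1e-05) and 1.20 (edgeR adjusted p = 0.00434). Markers of macrophages, which are known to express Il4i1, moved with it on the AhR-poor diet. Their summed level there was 49.2 to 59.3 CPM with vehicle and 117 to 546 CPM with papain. On the I3C diet it was 19.5 to 28.5 CPM with vehicle and 11.3 to 38.7 CPM with papain, and 0 of the 8 markers were called. The part of these cells in the rise of Il4i1 was not tested.

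Finally, the genes whose log2 CPM followed each of the 8 most closely over the 16 libraries were listed, among 13026 genes with a mean of at least 1 CPM. These values of Pearson's r are descriptions, since libraries of a group share their diet and treatment. Tlcd2 (r = 0.960) and Ldhb (r = 0.959) were most like Cyp1b1, and after subtracting group means their r was 0.814 and 0.8289. Eml1 (r = 0.849) and Dtx4 (r = 0.846) were most like Cyp1a1, with 0.538 and 0.582 after subtraction. Cpne8 (r = 0.989) and Lgmn (r = 0.986) were most like Nqo1, and Bhlhe41 (r = 0.980) and Gstm1 (r = 0.979) were most like Aldh3a1.

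Zc3hav1, an antiviral protein of the same family as TIPARP, was most like Tiparp (r = 0.956, and 0.952 after subtracting group means), followed by Slc19a2 (r = 0.936). Wapl (r = 0.960) and Pcsk7 (r = 0.955) were most like Arnt, and their r was 0.927 and 0.931 after subtraction. For Ahr they were Pkia (r = 0.884) and Bnc2 (r = 0.877), with 0.850 and 0.870 after subtraction, and for Ahrr Nid2 (r = 0.827) and St8sia1 (r = 0.793), the lowest values of the set.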

How the data were processed

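Epidermal cells of the footpad were profiled in 16 mice, 4 for each combination of diet and injection. Per the labels and the methods, libraries were made with the TruSeq Stranded mRNA kit and aligned with STAR to mm10 (GRCm38). The authors deposited raw counts of reads for each gene and library, without normalization. The counting tool, annotation release and strand setting are not given in the sources used here. Library totals ranged from 22500821 to 51844375 counts, and the floor of 3 counts covers counting error only. Positions, exon lengths and symbols were taken from GENCODE M21, and promoter windows from RefSeq.

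Groups were taken from the labels. Genes were kept from a total of 10 counts upward, scaled with TMM factors and fitted with a mean for each group over all 16 libraries in edgeR 4.0.16 under R 4.3.3, using the robust quasi-likelihood F test. A gene was called at an adjusted p below 0.01 with a log2 fold change beyond 1, the thresholds of the study, and calls at an adjusted p below 0.05 with any fold were counted too. Intervals are at 95% and come from the same fit, so they include the spread between mice. Two-sided exact permutation tests used log2 CPM with a prior count of 0.5. The model was tested on simulated data, for the diets with vehicle alone. Changes were planted in 200 genes with a mean of at least 1 CPM. That simulation therefore does not cover genes below this mean, the papain groups or a shift in cell types. P-values measure the spread between mice, and mice on a diet shared a cage. Sequencing units are named in the methods without the unit of each library, so they were not a term in the model. No pair of replicate libraries was as close as counting error, so each counted once.

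The 8 genes, the gene lists and the tests were chosen with earlier results of these data known. All 8 genes are named whether or not they passed. From each list, at most 6 genes called in any comparison are named, by largest log2 fold change, and for each of the 8 the 2 genes with the highest Pearson's r. Alternatives were other scaling factors and filters, the Wald test of DESeq2 1.42.0, fewer libraries, other thresholds, a prior count of 2 and a fibroblast marker covariate. The coding length from GENCODE was added as an alternative after the data were seen.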

Additional observations from a re-analysis of the deposited data

Results flagged for a closer look

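In each of the 4 groups, the 8 genes were checked for a library that stood far from the other 3, which gave 32 checks. Chance alone marks about 1 in 20 such checks, and 2 were marked. Tiparp in the I3C group with vehicle stood at 265 CPM in library T108, against 137, 142 and 144 CPM in the others, a gap of 0.946 of the range of the group. Aldh3a1 in the AhR-poor group with papain stood at 92.7 CPM in library T107, against 130, 131 and 134 CPM, a gap of 0.895 of the range. T107 had the lowest total of the 16 libraries, 22500821 counts. What set these libraries apart was not tested.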

How the results depend on the processing

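No paired analysis was possible because no 2 groups share a replicate code. No called change of the 8 genes reversed under any alternative run. Between the diets with vehicle, where 0 of the 8 were called, 1 was (Cyp1b1) at an adjusted p below 0.05, also with no minimum fold, and in DESeq2 (1.02, adjusted p = 0.00744). Its adjusted p ranged from 0.0140 to 0.175 when 1 library was left out, above 0.05 in 9 of 16 fits, and was 0.0849 with at least 10 counts in every library. Between the diets with papain, 2 became 1 with at least 10 counts in every library, since 6 of the 8 were then tested and Cyp1a1 and Ahrr were not, and 0 with the fibroblast covariate. With papain on the AhR-poor diet, 1 became 2 (Aldh3a1) without a minimum fold at an adjusted p below 0.01 or 0.05. The interaction gave 1 (Cyp1a1) in DESeq2. Leaving out each library in turn changed 1 call, that of Cyp1b1 with papain on the I3C diet, called without T106 and also without T106 and T112 together (-1.19, edgeR adjusted p = 0.00322). The cause was not tested. The log2 fold change of Cyp1a1 for the diets with papain then ranged from 2.48 to 3.31, and its interaction from 2.68 to 3.61. A prior count of 2 changed no exact permutation p of the 8 genes.

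Calls over all genes moved more. For the diets with vehicle, 352 became 58 with at least 10 counts in every library, 0 with the covariate, 595 in DESeq2, 546 without T106 and T112, 587 at an adjusted p below 0.05 and 683 with any fold, and leaving out 1 library gave 194 to 210 without T100, T108, T109 or T110 and 235 to 430 without another. For the diets with papain, 1605 became 561, 0 with the covariate, and 2482 and 4577 with no minimum fold at an adjusted p below 0.01 and 0.05. For papain with the AhR-poor diet, 1874 became 997 with at least 10 counts in every library, 896 with the covariate, and 4977 and 7394 with no minimum fold. For papain on the I3C diet, 1989 became 5686 and 7828 with no minimum fold. For the interaction, 4 became 63 at an adjusted p below 0.05, 73 with any fold, 10 with library size only, 7 with genes of at least 1 count, 0 with the covariate, 207 in DESeq2 and 270 without T106 and T112, and leaving out 1 library gave 2 to 95, with 95 without T112, 31 without T106, 15 without T100 and 2 without T101, T102, T104, T108, T114 or T115. The coding length of RefSeq proteins was not run, and the fit of only the libraries compared was not run for the interaction. Depth limits Cyp1a1 and Ahrr most, each with at least 1 library below 10 counts.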
